A study of Mus musculus with 4 samples.

Results

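The Ly49 receptors of the mouse are lectin-like proteins on the surface of natural killer (NK) cells and of some T cells, and are encoded by the Klra genes. The 7 members described here, Klra1 (Ly49A), Klra3 (Ly49C), Klra4 (Ly49D), Klra6 (Ly49F), Klra7 (Ly49G), Klra8 (Ly49H) and Klra9 (Ly49I), were chosen by name from the 14697 genes of the table. Peripheral blood was drawn from C57BL/6 female mice of 4 months (young) and 24 months (old), with no treatment or engineered allele named, and single cells were profiled with 10x Chromium 3′ chemistry. Each age was represented by 2 samples, and each sample was pooled from 2 mice that cannot be told apart, so that n = 2 pools per age and p-values measure the spread between pools. The samples held 2187 to 4642 cells and 9521253 to 18658072 unique molecular identifiers (UMIs, counted molecules), with medians of 2233 to 3482 UMIs per cell.

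Most Ly49 receptors bind MHC class I molecules on other cells. The inhibitory receptors, Klra1, Klra3, Klra6, Klra7 and Klra9, carry a tyrosine motif in the tail that recruits the phosphatase Ptpn6, whereas the activating receptors Klra4 and Klra8 lack it and signal through the adaptor Tyrobp (DAP12). Each NK cell transcribes some of the genes and not others, so that the repertoire differs from cell to cell, and Klra8 is known for recognizing a protein of mouse cytomegalovirus.

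Cells were gated on raw UMIs of marker genes, with no member among the markers. All gates allowed at most 1 UMI of the B cell genes Cd79a, Cd79b and Ms4a1 and none of Csf1r, a monocyte gene. NK cells had no Cd3 UMI, at least 1 Nkg7 UMI and a UMI of Ncr1 or Klrb1c. NKT-like cells had at least 2 Cd3 UMIs and a Klrb1c UMI, and Cd8 T cells had at least 2 Cd3 UMIs and a Cd8 UMI but none of Klrb1c, Ncr1 or Cd4. The NK gate held 124 and 135 cells in young and 45 and 24 cells in old samples 1 and 2, the NKT-like gate 83, 91, 13 and 13 cells, and the Cd8 T gate 321, 186, 88 and 64 cells. Among genes the gates did not use, the T cell genes Cd5, Cd6 and Cd28 summed to 27.6 to 88.1 CPM (UMIs per 1000000 UMIs) in NK cells against 253 to 449 CPM in NKT-like cells. The NKT-like gate rested on Cd3 and Klrb1c alone, and its makeup differed with age: a Cd8 UMI was found in 13.3% and 12.1% of its young cells and in 53.8% and 23.1% of its old cells. Of the platelet markers Ppbp, Pf4, Gng11, Itga2b and Gp9, none was at 0 over the NK gate. Their summed level in NK cells was 10.5 and 9.93 CPM in young and 1389 and 249.5 CPM in old samples, so that platelet RNA moved with age, as it did in NKT-like cells (0 in both young samples, 884 and 112 CPM in old ones) and in Cd8 T cells (1.92 and 7.87 against 613 and 457 CPM). Of 14480 distinct barcodes, 108 occurred in more than 1 library.

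In the GENCODE annotation of GRCm38, the mm10 assembly, the 7 protein-coding genes lie on the minus strand of chromosome 6 within 374 kb, from Klra6 (chr6:130013033-130026954) through Klra4 (chr6:130043731-130067271), Klra8 (chr6:130115226-130129898), Klra9 (chr6:130178675-130193112), Klra7 (chr6:130218605-130233322) and Klra3 (chr6:130323289-130337574) to Klra1 (chr6:130363917-130386874). The genes are related in sequence, and reads of a copy can be counted for another. Among all 98-base stretches in the last 500 bases of their annotated coding transcripts, where 3′ reads fall, the share identical to another gene was 3.53% for Klra3 (with Klra10), 4.12% for Klra7 (with Klra13-ps), 8.56% for Klra9 (with Klra8 and Klra11-ps) and 0 for the other 4 members. No such stretch was shared by Klra3 and Klra9. Only identical stretches were looked for, so these shares do not measure how often a read was counted for another gene.

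The promoters of Klra3 and Klra9 and those of Klra4 and Klra8 are shown because each pair is closely alike in sequence, while the former holds the member that was called with age in NK cells and the latter the activating receptors. The windows of 300 bases around the RefSeq start on GRCm38.p6, which for Klra3 lies upstream of the GENCODE start, were taken from RefSeq and are written 5′ to 3′ on the minus strand: Klra3 chr6:130337577-130337876, Klra9 chr6:130193063-130193362, Klra4 chr6:130067222-130067521 and Klra8 chr6:130129849-130130148. Capitals mark the longest run of letters common to both pairs and to Klra6, AAGCAATTTCCTCTTTT.
Klra3: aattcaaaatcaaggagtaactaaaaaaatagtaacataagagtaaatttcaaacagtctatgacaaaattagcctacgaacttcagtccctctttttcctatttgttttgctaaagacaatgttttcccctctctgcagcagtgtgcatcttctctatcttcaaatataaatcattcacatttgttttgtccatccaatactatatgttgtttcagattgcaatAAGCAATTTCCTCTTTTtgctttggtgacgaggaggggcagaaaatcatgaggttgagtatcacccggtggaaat
Klra9: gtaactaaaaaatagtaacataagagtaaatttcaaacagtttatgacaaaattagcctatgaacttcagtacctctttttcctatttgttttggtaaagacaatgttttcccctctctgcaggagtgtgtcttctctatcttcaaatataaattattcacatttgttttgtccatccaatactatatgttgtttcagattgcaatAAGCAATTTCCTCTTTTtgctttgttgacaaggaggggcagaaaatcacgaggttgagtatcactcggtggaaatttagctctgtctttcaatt
Klra4: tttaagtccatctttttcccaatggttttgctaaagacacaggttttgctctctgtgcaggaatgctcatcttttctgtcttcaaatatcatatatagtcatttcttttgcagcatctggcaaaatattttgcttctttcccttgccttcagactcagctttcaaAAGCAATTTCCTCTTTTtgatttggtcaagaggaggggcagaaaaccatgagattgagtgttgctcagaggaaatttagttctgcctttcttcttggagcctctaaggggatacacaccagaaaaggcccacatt
Klra8: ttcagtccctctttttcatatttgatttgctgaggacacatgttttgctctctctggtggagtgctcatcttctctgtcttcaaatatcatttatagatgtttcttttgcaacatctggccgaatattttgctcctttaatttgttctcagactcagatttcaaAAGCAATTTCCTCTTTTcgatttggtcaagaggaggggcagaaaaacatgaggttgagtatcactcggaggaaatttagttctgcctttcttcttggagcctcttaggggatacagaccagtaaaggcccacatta
Aligned over the window, Klra3 and Klra9 were identical at 85.0% of positions and Klra4 and Klra8 at 86.0%, whereas the other 19 pairs of members reached 46.5% to 63.2%. The run of 17 bases began 25 bases before the start in Klra3, 44 in Klra9, 85 in Klra4, 86 in Klra8 and 125 in Klra6, and was not found in the windows of Klra1 and Klra7. The Klra7 window (chr6:130231638-130231937) lies inside the GENCODE gene, downstream of its GENCODE start. The missing run and the low identities of Klra7 therefore hold for this window alone. The run was present, on either strand, in 8 of 32544 mouse promoter windows (0.0246%). The run was chosen for being shared and is a description of these windows.

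Among the gated classes of cells, the members were at their highest in NK cells, with the exception of Klra6. Of all 14588 cells, 3929 fell in no class, and these held 24.4% (Klra8) to 35.5% (Klra7) of a member's UMIs. The UMI marks the 3′ end of a molecule, so CPM were not divided by transcript length, and how well each gene's 3′ end was captured was not tested. The activating receptor Klra4 stood at 1261 and 1053 CPM in NK cells of young and 1003 and 1115 CPM in those of old samples 1 and 2. The other activating receptor, Klra8, stood at 751 and 596 CPM in young and 689.8 and 572 CPM in old NK cells. For both, young and old samples overlapped. Among inhibitory receptors, Klra7 stood at 835 and 679 CPM in young and 589 and 499 CPM in old NK cells, with both old samples below both young ones. Klra9 stood at 765 and 421 CPM in young and 469 and 440.3 CPM in old NK cells, and young sample 1 was high. Klra1 stood at 178 and 152 CPM in young and 304 and 132 CPM in old NK cells. Its highest value, in old sample 1, came from 33 UMIs in 6 cells.

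**Figure D1:**
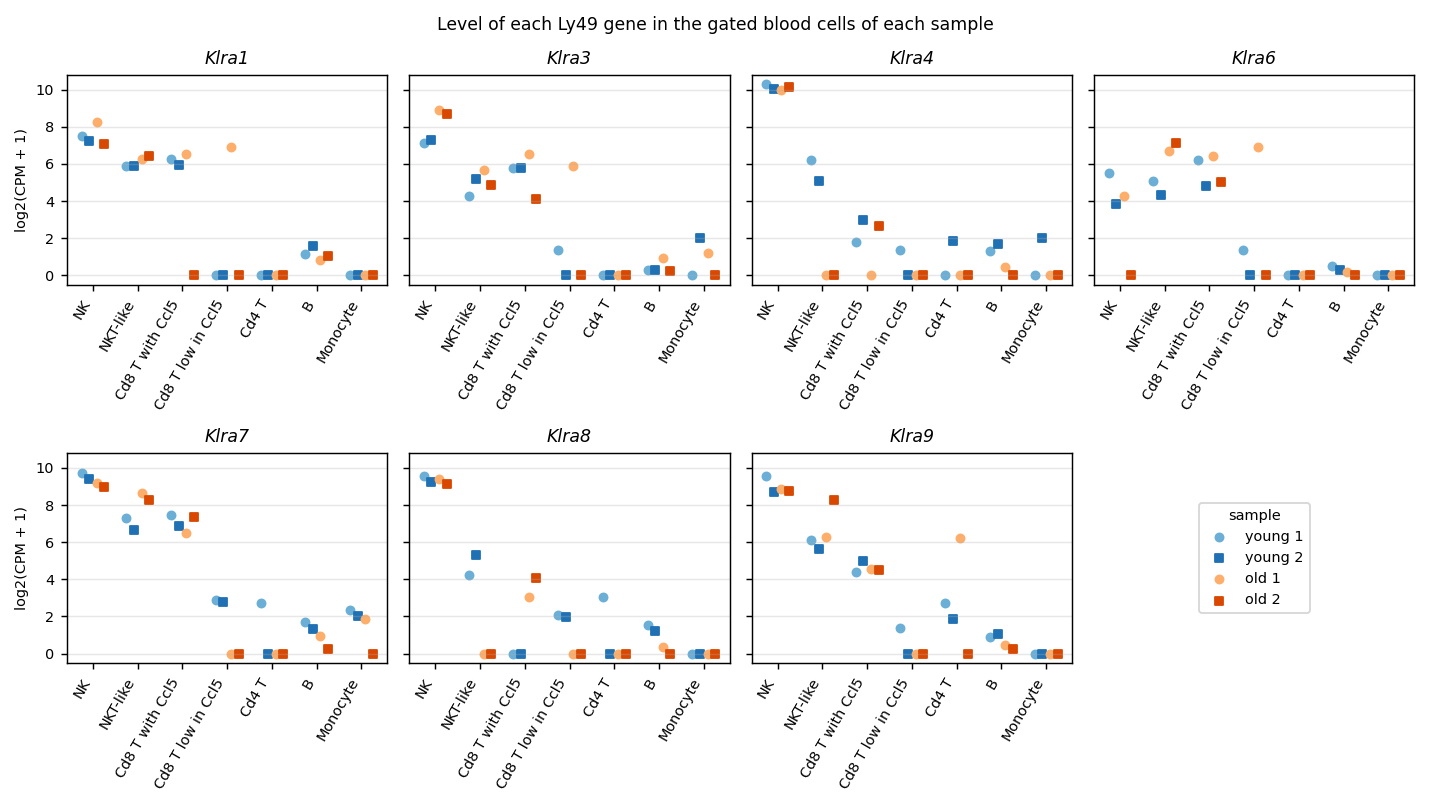
Level of each of the 7 Ly49 genes, as log2(CPM + 1) on the vertical axis, in 7 gated classes of blood cells on the horizontal axis. Each point is the sum over the cells of a class in 1 sample (blue, young; orange, old). Klra4 and Klra8 are far higher in NK cells than in the other classes, of which young NKT-like cells come next, while Klra6 is not highest in NK cells. Points for the Cd8 T cells low in Ccl5 of the old samples rest on 5 and 12 cells.

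Klra3, an inhibitory receptor, stood in NK cells at 139.7 and 156 CPM in young samples 1 and 2 and at 487 and 411 CPM in old samples 1 and 2, from 40, 47, 53 and 28 UMIs. Both old samples lay above both young ones. Klra6 was scarce in NK cells, with 45.4 and 13.2 CPM in young and 18.4 and 0 CPM in old samples. Its 0 was 0 of 24 cells, which allows a share of up to 12.5%.

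A UMI of Klra3 was found in 15.3% and 13.3% of young and in 46.7% and 50.0% of old NK cells. Old NK cells were somewhat deeper, with medians of 2329 and 2474.5 UMIs against 2087.5 and 1933 UMIs in young ones. After each cell was thinned to 1000 UMIs the shares were 12.1% and 9.63% in young and 35.6% and 29.2% in old samples, a difference of 21.5 percentage points between means. The two-sided exact permutation test gave p = 0.333, the smallest that 2 against 2 samples allow. The number of Klra3 UMIs in a cell that had any was 2.11 and 2.61 in young and 2.52 and 2.33 in old samples, and the ages overlapped. B cells, which should lack the receptors, gave a background. A Klra3 UMI was found in 0.165% of 8510 B cells, and the shares of the other members in B cells were 0.0588% to 0.364%. B cells had medians of 2032 to 3094 UMIs. The shares of NK cells with the other members, before thinning, were 44.4% to 62.5% for Klra4, 45.8% to 58.5% for Klra7, 37.8% to 47.6% for Klra8, 37.5% to 54.8% for Klra9, 13.3% to 20.8% for Klra1 and 0 to 4.44% for Klra6 over the 4 samples. Intervals and limits cover counting error.

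**Figure D2:**
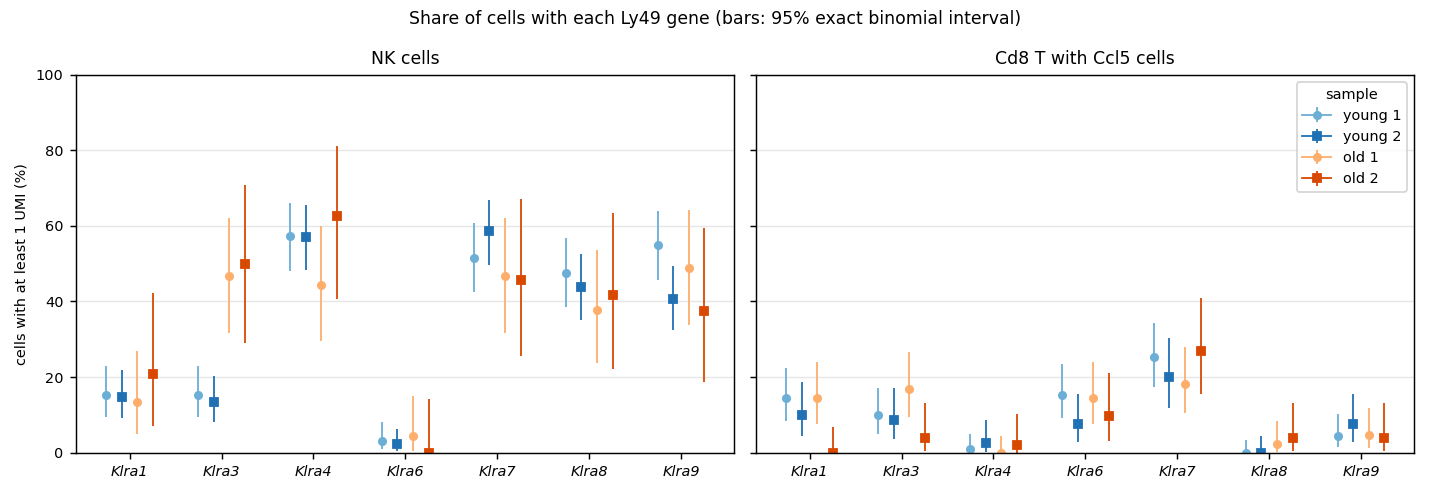
Share of cells (vertical axis, percent) with at least 1 UMI of each Ly49 gene (horizontal axis) in NK cells and in Cd8 T cells with at least 5 Ccl5 UMIs, per sample, before thinning. Bars are 95% exact binomial intervals. In NK cells the Klra3 shares of the old samples, 46.7% and 50.0%, lie above those of the young samples, 15.3% and 13.3%.

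The first comparison asked which receptors differed between old and young NK cells. UMIs of the gate were summed for each sample. Tests by edgeR's quasi-likelihood method covered genes with a UMI in at least 10% of the NK cells of each age, and a gene with a Benjamini-Hochberg adjusted p of at most 0.05 was called. Of the 7 members, 6 passed this filter and Klra3 was called as higher in old NK cells. Over all 2503 genes tested, 0.16% were called, and these were 4 genes: Klra3, Gzmb, Ctla2a and S100a6, a calcium-binding protein with a log2 rise of 0.84 (adjusted p = 0.0226). For Klra3 the log2 rise was 1.72 (SE 0.25, 3.30-fold, adjusted p = 0.000215). For the 5 members not called, the log2 change was 0.61 (SE 0.30) for Klra1, -0.02 (SE 0.17) for Klra4, -0.35 (SE 0.18) for Klra7, 0.04 (SE 0.18) for Klra8 and -0.26 (SE 0.23) for Klra9, with adjusted p-values of 0.924 to 0.989. Klra6 did not pass the filter, and with the filter set to 10 UMIs in all it gave a log2 change of -1.23 (SE 1.09, adjusted p = 0.965). Both old samples were above both young ones in CPM for Klra3 and below them for Klra7, as they were for 10.1% and 24.8% of all genes tested.

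In 11 of 13 alternatives Klra3 was called, with log2 changes of 1.52 to 2.01 over all 13. The call was lost without a filter on low counts (1.59, adjusted p = 0.849) and in NK cells without a platelet marker UMI (1.56, adjusted p = 0.0594, with 0.0946% of genes called). The latter left 20 and 12 old NK cells, in which Klra3 stood at 475 and 406 CPM, against 143 and 163 CPM in the young ones. Summed hemoglobin and Alas2 UMIs, from red cells, ranged from 5097 to 110382 CPM in NK cells and were lowest in young sample 1 and highest in old sample 2.

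Genes of the pathway in NK cells gave few calls. Among mature NK genes, Gzmb, a granule protease, stood at 1125 and 871 CPM in young and 2171 and 1189 CPM in old samples, a log2 rise of 0.89 (SE 0.18, adjusted p = 0.0276). This was 1 of 10 tested, and 9 of the 10 changes were positive with a median of 0.48, against a median of 0.00 over all genes. Klrg1, a receptor of mature NK cells, had a log2 change of 0.76 (adjusted p = 0.58). Among immature NK genes 1 of 7 was called, Ctla2a, an inhibitor of cathepsins, which rose by 1.03 (SE 0.22, adjusted p = 0.0398), while the median of the list was -0.47 and Xcl1, a chemokine, had a log2 change of -1.50 (adjusted p = 0.136). Neither signalling partners (13 tested, median 0.12), class I ligand genes (6, median -0.01), transcription factors (9, median -0.05) nor the other receptors of the NK gene complex (12, median -0.04) gave a call in edgeR, where 130 of all 2503 genes had an unadjusted p under 0.05. The adaptor Tyrobp stood at 3836 and 3434 CPM in young and 4452 and 3522 CPM in old NK cells. A platelet marker UMI was found in 55.6% and 50.0% of old NK cells, against 1.61% and 1.48% of young ones. The part of platelet RNA in the changes of Gzmb, Ctla2a and S100a6 was not tested.

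**Figure D3:**
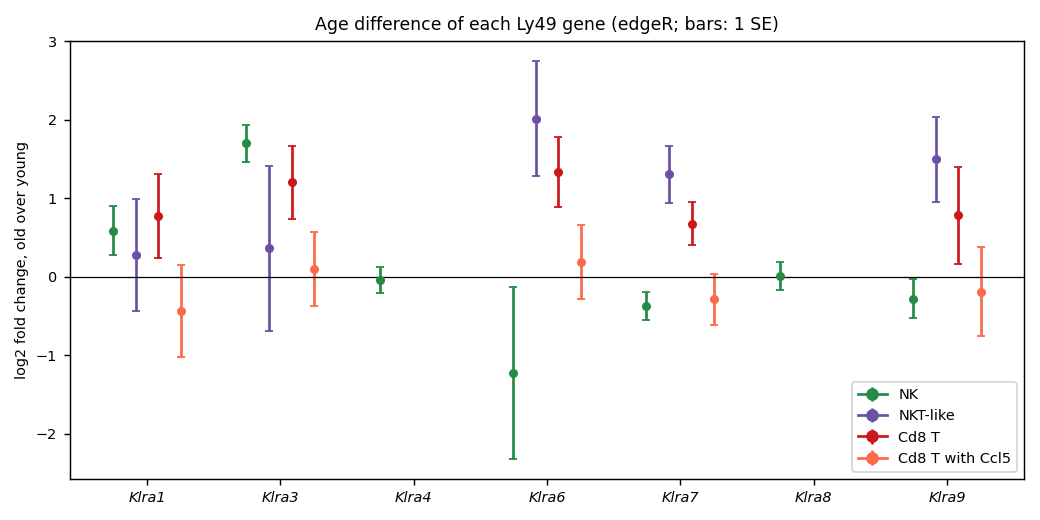
Log2 fold change of old over young (vertical axis) for each Ly49 gene (horizontal axis) in NK, NKT-like and Cd8 T cells and in Cd8 T cells with at least 5 Ccl5 UMIs, from edgeR over genes with at least 10 UMIs. Points are estimates and bars 1 SE, and genes without a point had too few UMIs or were at 0 in old cells. Klra3 in NK cells stands at 1.71, while the other NK points lie between -1.23 and 0.59.

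NKT-like cells carried fewer receptors, and mainly inhibitory ones. Klra7 stood at 159 and 100.02 CPM in young and 404 and 308 CPM in old samples, with both old samples above both young ones. Klra9 stood at 68.7 and 48.4 CPM in young and 75.8 and 308 CPM in old samples, and old sample 2 was far above old sample 1. Klra6 stood at 32.5 and 19.4 CPM in young and 101 and 140.2 CPM in old samples, from 9, 6, 4 and 5 UMIs. Klra1 and Klra3 ranged from 57.8 to 84.1 CPM and from 18.1 to 50.5 CPM. The activating receptors were found in young samples alone, Klra4 at 72.3 and 32.3 CPM and Klra8 at 18.1 and 38.7 CPM. In each old sample both were found in 0 of 13 cells, which allows a share of up to 23.1%, so that an age difference was not detectable at this number of cells.

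Of the members, Klra7 alone passed the filter in NKT-like cells, and its log2 rise with age was 1.43 (SE 0.36, adjusted p = 0.0166 in edgeR). Over all 2545 genes tested, 0.629% were called, and for 17.2% both old samples were above both young ones in CPM. The call rested on every library: the log2 change and adjusted p were 1.71 and 0.0849 without young 1, 1.19 and 1.00 without young 2, 1.26 and 0.46 without old 1, and 1.56 and 0.0836 without old 2. It was also lost in DESeq2 (1.45, adjusted p = 0.999) and with the filter at 10 UMIs (1.30, adjusted p = 0.0769), where Klra6 had a log2 change of 2.02 (adjusted p = 0.455) and Klra9 of 1.50 (adjusted p = 0.427). Thinned shares of cells with Klra7 were 14.5% and 4.40% in young and 23.1% and 30.8% in old samples (exact permutation p = 0.333). A platelet marker UMI was found in 8 and 4 of the 13 cells of old samples 1 and 2 and in no young NKT-like cell. The part of platelet RNA in the NKT-like values was not tested.

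Other genes of the NKT-like gate moved with age in the same fit. Tyrobp stood at 408 and 336 CPM in young and 75.8 and 112 CPM in old samples and fell by 2.03 in log2 terms (SE 0.44, adjusted p = 0.0013). It was 1 of 10 signalling partners tested. Id2, a factor needed for NK cells, fell by 0.96 (adjusted p = 0.0116) and was 1 of 7 transcription factors, Ccl5 rose by 1.31 (adjusted p = 1.0e-07) and was 1 of 3 mature NK genes, and Ctla2a rose by 1.29 (adjusted p = 0.000469) and was 1 of 11 immature NK genes. No class I ligand gene of 7 and no receptor of the NK gene complex of 9 was called. The summed ILC1 markers, genes of innate lymphoid cells of which none of 8 was at 0, stood at 1077 and 978 CPM in young and 227 and 365 CPM in old NKT-like samples, and their part in the Klra7 value was not tested. Without cells that had a Tyrobp UMI, which left 58, 66, 10 and 10 cells, the Klra7 change was 1.96 (SE 0.37, adjusted p = 0.0491, with 0.189% of genes called), and with the filter at 10 UMIs (0.436% called) it was 1.87 (adjusted p = 0.00138) and that of Klra9 2.49 (adjusted p = 0.0342).

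The presence of the adaptor could be read per cell. Of the 200 NKT-like cells, 10 had a UMI of Klra4 or Klra8, and 9 of these 10 also had one of Tyrobp, at 1880.05 CPM. Tyrobp stood at 404 CPM in the 60 cells with an inhibitory receptor but neither activating one, and at 149 CPM in the 130 cells without a member, with shares of 30.0% and 22.3%. All 10 cells came from young samples. The NKT-like gate does not exclude doublets of NK and T cells, and their part in these 10 cells was not tested. In Cd8 T cells 3 of the 12 cells with Klra4 or Klra8 had a Tyrobp UMI (25.0%, 61.3 CPM), against 21.2% of the 132 cells with an inhibitory receptor alone (78.4 CPM) and 12.6% of the 515 cells without a member (43.3 CPM). In NK cells a Tyrobp UMI was found in all 229 cells with Klra4 or Klra8, in all 70 cells with inhibitory receptors alone and in 24 of 29 cells with none. Cells of the same pool are not independent, and these shares carry no test.

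Cd8 T cells were divided by Ccl5, a chemokine of memory and effector cells. In Cd8 T cells with at least 5 Ccl5 UMIs (111, 80, 83 and 52 cells), Klra7 stood at 175 and 116 CPM in young and 88.9 and 166 CPM in old samples. Klra6 stood at 73.8 and 27.2 CPM in young and 85.2 and 32.1 CPM in old samples, and Klra1 at 76.3, 61.2, 92.6 and 0 CPM. The 0 of Klra1 was 0 of 52 cells, which allows a share of up to 5.77%. Klra3 stood at 54.1, 54.4, 92.6 and 16.1 CPM and Klra9 at 19.7 to 30.6 CPM, while Klra4 stood at 2.46, 6.80, 0 and 5.36 CPM. Klra8 was at 0 in both young samples and at 7.41 and 16.1 CPM in old samples 1 and 2, from 2 and 3 UMIs. Its zeros were 0 of 111 and 0 of 80 cells, which allow shares of up to 2.70% and 3.75%. In the whole Cd8 T gate without a filter, the log2 change of Klra8 was 2.21 (adjusted p = 0.623). For all 5 inhibitory receptors young and old samples overlapped. In Cd8 T cells low in Ccl5, Klra7 stood at 6.31 and 5.86 CPM in young and at 0 in both old samples, which held 5 and 12 such cells. The other inhibitory receptors had at most 1 UMI each in the 316 young cells of this fraction. Among the 5 such cells of old sample 1, however, Klra1 and Klra6 stood at 117 CPM, from 2 UMIs each, and Klra3 at 58.7 CPM, from 1 UMI. Klra8 stood in this fraction at 3.16 and 2.93 CPM in young samples 1 and 2, from 2 and 1 UMIs, and at 0 in both old ones. Klra4 had 1 UMI in this fraction, in young sample 1.

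In the whole Cd8 T gate, no member reached a UMI in 10% of the cells of both ages, so none was tested by the main rule, under which 3.98% of 2689 genes were called. With the filter at 10 UMIs 5 members were tested and none was called, where 200 of all 8424 genes were. The log2 changes were 1.33 for Klra6, 1.20 for Klra3, 0.78 for Klra9, 0.78 for Klra1 and 0.68 for Klra7, with adjusted p-values of 0.14 to 0.714. Without any filter Klra6 was called (1.27, adjusted p = 0.0357), where 284 of all 12013 genes were. The fraction with at least 5 Ccl5 UMIs was 34.6% and 43.0% of young but 94.3% and 81.2% of old Cd8 T cells. Within this fraction the log2 changes were 0.19 for Klra6, 0.10 for Klra3, -0.19 for Klra9, -0.43 for Klra1 and -0.29 for Klra7, with SEs of 0.32 to 0.58, and none was called, where 0.416% of 6964 genes were.

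Pathway genes changed in the whole Cd8 T gate along with this fraction. Klrk1 (NKG2D), a receptor of the same gene complex, had a log2 rise of 1.63 (adjusted p = 0.00106) and was 1 of 6 tested. The class I genes H2-D1 and H2-K1 rose by 0.60 (adjusted p = 0.00484) and 0.45 (adjusted p = 0.0331) and were 2 of 6. Among 8 transcription factors, Id2 (1.13) and Eomes (1.40) rose and the naive T cell factors Lef1 (-1.63) and Tcf7 (-0.95) fell. Sh2d1a, an adaptor, rose by 1.10 and was 1 of 10 signalling partners, and Ccl5 rose by 1.57 as the single mature NK gene tested. Of 10 immature NK genes, Ctla2a (2.23) and Cxcr3 (1.57) rose and Tcf7 fell. A platelet marker UMI was found in 58.0% and 46.9% of old Cd8 T cells, against 0.312% and 2.69% of young ones. The part of platelet RNA in these changes was not tested.

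A second comparison set the gates against each other, with the sample as a block, since the gates are cells of the same pools. Against Cd8 T cells, where 29.1% of 3421 genes were called and 14.7% were called as higher in NK cells, Klra4 was higher in NK cells by a log2 difference of 8.46 (SE 0.29, adjusted p = 1.9e-19) and Klra8 by 7.03 (SE 0.31, adjusted p = 4.8e-17). Between gates a gene was tested if at least 10% of the cells of either gate had a UMI of it. The inhibitory receptors followed with 5.05 for Klra9 (SE 0.29), 2.83 for Klra7 (SE 0.21), 2.53 for Klra3 (SE 0.24) and 2.07 for Klra1 (SE 0.26), with adjusted p-values of at most 2.09e-07. These 6 passed the filter through the NK gate, in which they are high, so their number adds nothing. Klra6 did not pass it, and with the filter at 10 UMIs its difference was -0.63 (SE 0.40, adjusted p = 0.365). Each of the 6 was called in all 10 alternatives.

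NK cells also exceeded NKT-like cells. Here 15.6% of 3674 genes were called, 7.68% as higher in NK cells, and all 7 members passed the filter. Klra6 passed through the NKT-like gate alone, and Klra1, Klra3, Klra4 and Klra8 through the NK gate alone. The number called therefore adds nothing here either. Klra4 (4.58, SE 0.24) and Klra8 (4.56, SE 0.30) differed most, followed by Klra9 (2.70), Klra3 (2.61), Klra7 (1.91) and Klra1 (1.37, adjusted p = 0.0016), and each was called in all 10 alternatives. Klra6 had a difference of -0.86 (SE 0.54, adjusted p = 0.346) and was not called. Between NKT-like and Cd8 T cells 6.45% of 3646 genes were called, 3.32% as higher in NKT-like cells, and 3 members passed. Klra9 and Klra6 passed through the NKT-like gate alone, with 11.5% and 10.0% of its cells against 2.73% and 6.37% of Cd8 T cells. The number called thus adds nothing. Klra9 was higher in NKT-like cells by 2.39 (SE 0.42, adjusted p = 0.000253). Klra7 was higher by 0.96 (SE 0.27, adjusted p = 0.0247), a call held in 7 of 10 alternatives and lost without young 1, without old 1 (log2 differences of 1.06 and 0.76) and without the block. Klra6 had a difference of 0.30 (SE 0.43, adjusted p = 0.782).

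Ordered by mean CPM over the 4 samples, the classes for Klra4 were NK (1108 ± 112, SD, n = 4), NKT-like (26.1 ± 34.3), and Cd8 T with Ccl5 (3.65 ± 3.03), where NK and NKT-like cells did not overlap but NKT-like and Cd8 T cells did. For Klra8 they were NK (652 ± 83.1), NKT-like (14.2 ± 18.4) and Cd8 T with Ccl5 (5.87 ± 7.64), with the same pattern of overlap. For Klra7 they were NK (650.3 ± 143), NKT-like (243 ± 139) and Cd8 T with Ccl5 (136 ± 41.0), where NKT-like and Cd8 T cells overlapped. For Klra9 they were NK (524 ± 162), NKT-like (125 ± 123) and Cd8 T with Ccl5 (23.5 ± 4.86), and the samples of neighbouring classes among these did not overlap. For Klra3, NK cells (298 ± 177) were followed by Cd8 T cells with Ccl5 (54.3 ± 31.2) and NKT-like cells (33.0 ± 13.7), and for Klra1 NK cells (192 ± 77.0) by NKT-like cells (69.0 ± 13.2) and Cd8 T cells with Ccl5 (57.5 ± 40.4), with overlap between NKT-like and Cd8 T cells in both. Klra6 ran in another order, NKT-like (73.3 ± 57.2), Cd8 T with Ccl5 (54.6 ± 29.2) and, after the few Cd8 T cells low in Ccl5, NK (19.3 ± 19.1), and each overlapped its neighbour. In B cells and monocytes each member averaged at most 2.44 CPM.

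Other genes of the NK pathway moved with the gates. Against Cd8 T cells, 10 of 10 mature NK genes tested, 6 of 16 signalling partners and 11 of 14 other receptors of the NK gene complex were called as higher in NK cells. Among all genes 14.7% were. Medians of these lists were 4.08, 0.12 and 3.44, against 0.02 over all genes. Of 11 immature NK genes 8 were called as lower (median -1.87), where 495 of all 3421 genes were. The immature list includes Tcf7, named above as a naive T cell factor, so this count does not measure NK maturity alone. Tyrobp was higher in NK cells by 5.86 on the log2 scale and Cma1, a protease, by 9.03. The 11 receptors include Klrb1c, whose absence defined the Cd8 T gate and whose call was thus fixed, and genes scarce in Cd8 T cells could pass the filter through NK cells, so these counts are a description. Among the receptors, Klri2 (8.42), Klrb1a (7.76) and Klre1 (3.20) were higher in NK cells. Of 12 transcription factors 5 were higher and 4 lower, and of 6 class I ligand genes 1 was higher.

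The age differences of the gates were then compared by an interaction term. For Klra7 the log2 age difference in NK cells minus that in NKT-like cells was -1.81 (SE 0.38, adjusted p = 0.0244), where 0.191% of genes were called. The value kept its sign but lost the call without young 2, old 1 or old 2 (-1.97 to -1.67 over all 4 omissions). For Klra3 the age difference in NK cells exceeded that in NKT-like cells by 1.16 (SE 0.98, adjusted p = 0.924) and that in Cd8 T cells by 0.57 (SE 0.49, adjusted p = 0.851), so that its rise was not shown to be particular to NK cells. Against Cd8 T cells 0.877% of genes were called and no member, with Klra7 at -0.99 (adjusted p = 0.177). Between NKT-like and Cd8 T cells 0.439% of genes were called and no member of the 3 tested.

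Several receptors were found in the same NK cell. On average 2.45 and 2.30 of the 7 genes had a UMI in a young NK cell and 2.42 and 2.58 in an old one. After thinning to 1000 UMIs the means were 1.92 and 1.75 in young and 1.89 and 1.79 in old samples, which overlapped (exact permutation p = 1.0). Of all 328 NK cells, 91.2% had a UMI of at least 1 member and 78.4% of at least 2. In Cd8 T cells with Ccl5 the means were 0.703, 0.562, 0.711 and 0.50, and in NKT-like cells 0.639 and 0.505 in young and 1.08 and 1.46 in old samples, where thinned means were 0.337, 0.231, 0.462 and 0.923 (exact permutation p = 0.333).

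**Figure D4:**
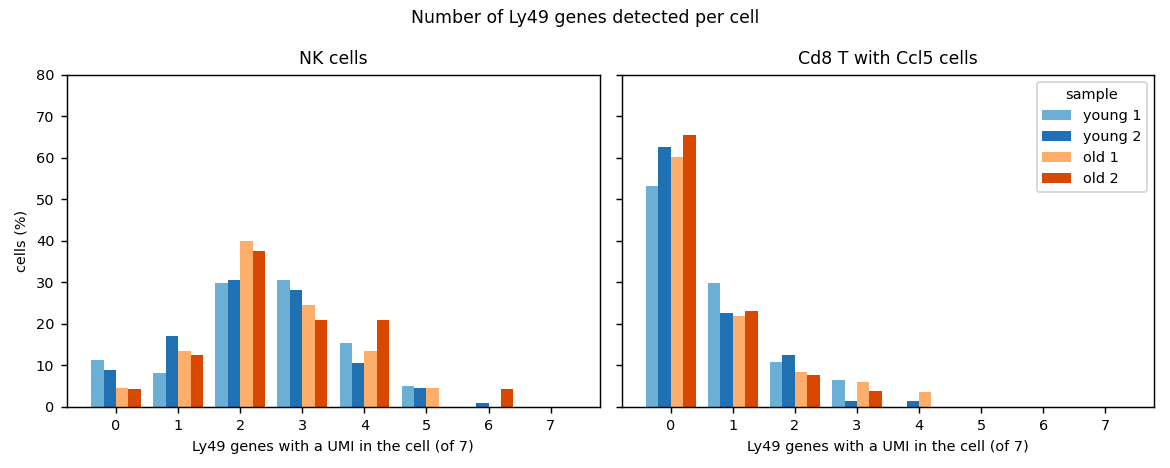
Percent of cells (vertical axis) by the number of the 7 Ly49 genes with a UMI in the cell (horizontal axis), for NK cells and for Cd8 T cells with at least 5 Ccl5 UMIs, per sample, before thinning. NK cells are most often seen with 2 or 3 genes (32.0% and 28.0% of all 328), and Cd8 T cells with none.

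Pairs of genes were set against the number of cells expected if both were spread independently within each sample. In NK cells Klra4 and Klra8, the activating pair, were together in 99 cells against 81.2 (ratio 1.22), Klra1 and Klra4 in 40 against 28.1 (1.42), and Klra3 and Klra9 in 34 against 32.5 (1.05). Klra1 and Klra3 were together in 7 cells against 10.9 (0.644). In the 326 Cd8 T cells with Ccl5, Klra1 and Klra6 were together in 18 cells against 4.79 (3.76) and Klra6 and Klra7 in 20 against 9.0 (2.22). Differences in depth between cells raise such ratios, and they are given without a test.

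Likeness was measured by Pearson's r of log2(CPM + 1) over 28 sums, 7 classes in 4 samples, among 8874 genes with at least 10 CPM in a class. The sums share libraries and depth, and the values are a description. The sum of the 7 members was most like Klrk1 (r = 0.927), Eomes (0.92), a factor of NK cells, and Klrc2 (0.915). Klra4 was most like Khdc1a (0.975), Phactr3 (0.96) and Gm28836 (0.957), and Klra8 like Phactr3 (0.94), Styk1 (0.936) and Clnk (0.934). Klra9 was most like Klrc2 (0.962), Klre1 (0.948) and Tbx21 (0.921), and Klra7 like Klrc1 (0.946), Klre1 (0.945) and Kcnj8 (0.928). Klra3 was most like Klrk1 (0.867), Gpc1 (0.866) and Klrc2 (0.862), and Klra1 like Gpc1 (0.871), Stk32c (0.865) and Klrc2 (0.845). Klra6 was most like F2r (0.827), Gzmm (0.81), a granule protease, and Cd160 (0.799).

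The table listed 3 further Klra genes. Klra2 (chr6:131219223-131247362) was highest in monocytes among the gated classes, at 205 and 247 CPM in young and 179 and 131 CPM in old monocytes. It had a UMI in 39.9% to 51.4% of these cells per sample, and 2 UMIs over all NK cells. Cells of no class held 52.5% of its UMIs. Klra5 had 40 UMIs in all, 13 of them in NK cells and 13 in NKT-like cells, and Klra17 had 44, with 0 in NK cells.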

How the data were processed

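Peripheral blood cells of 2 young and 2 old pools were profiled by single-cell RNA-seq. The authors deposited UMI counts per gene and cell, made with Cell Ranger 2.1.0 on mm10, with the duplicates of each age aggregated. Neither the annotation release nor whether aggregation equalised depth was stated in the sources used here. The authors kept cells with over 500 and under 4000 genes and under 10% mitochondrial reads, and analysed them in Seurat 2.3.0. The deposited table pairs cells with samples through its metadata, whose sample names gave the groups.

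Cells were gated on raw UMIs and no doublet caller was run. The gates limit B cell and monocyte markers but not those of platelets or red cells, and the NKT-like gate does not exclude doublets of NK and T cells. An alternative left out the 4% of cells with the most UMIs. T cell receptor constant genes and immunoglobulin genes were not used here. UMIs were summed per gate and sample and tested with edgeR 4.0.16 (R 4.3.3, TMM, quasi-likelihood, old against young, or gate with the sample as block and an age-by-gate term), over genes detected in 10% of the cells of both ages, or between gates of either gate, with Benjamini-Hochberg adjustment over all genes tested. Shares and numbers of genes per cell were compared after thinning each cell to 1000 UMIs, which left out 0 cells, by exact permutation of samples (scipy 1.17.1 in Python 3.11.15, with pandas 2.3.3 and numpy 2.4.6). Figures were drawn with matplotlib 3.10.9 and promoters aligned with Biopython 1.88. The fits were tested on simulated data with a fixed dispersion. A true 2-fold age change was recovered for 4.5% of changed genes in NK, 1% in NKT-like and 0% in Cd8 T cells. For a 4-fold change these shares were 68.5%, 39.5% and 92.5%. A member that was not called is therefore not shown to be unchanged.

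The members and lists were chosen with earlier results of these data known. Named were all 7 members, other Klra genes, up to 4 genes of each list by smallest p, and the 3 genes most like each member. S100a6 was named as 1 of the 4 genes called, after its values were seen. Alternatives were DESeq2 1.42.0, a filter at 10 UMIs, no filter, no TMM, a replicate block, stricter and looser gates, and leaving out each library. Chosen after seeing the data were Cd8 T cells with Ccl5 alone, NK cells without platelet marker UMIs and NKT-like cells without Tyrobp UMIs. Limits for 0 counts used 3 counts, and intervals were exact binomial at 95%.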

Additional observations from a re-analysis of the deposited data

Results flagged for a closer look

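Klra7 was singled out because, in the main fit, its age difference was called as differing between NK and NKT-like cells. The log2 age difference in NK cells minus that in NKT-like cells was -1.81 (SE 0.38, adjusted p = 0.0244 for the interaction term in edgeR), and 0.191% of the 3674 genes tested were called. The age difference was -0.35 in NK cells and 1.43 in NKT-like cells. Over 8 alternatives the interaction ranged from -2.09 to -1.61, and it was called in 4 of them. Adjusted p was 0.0591 with the filter at 10 UMIs, 0.0742 without young 2, 0.704 without old 1 and 0.459 without old 2. Each old sample held 13 NKT-like cells, of which 8 and 4 had a platelet marker UMI, and their part in the interaction was not tested. Groups of 2 samples are too small for a check of single samples that lie apart.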

How the results depend on the processing

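With NK cells taken alone, the number of members called with age was 1, and it fell to 0 without a filter on low counts (0 of all 10971 genes) and without cells that had a platelet marker UMI (2 of 2115). In NKT-like cells it was 1 and became 0 in DESeq2 (2 of all 2545 genes), with the filter at 10 UMIs (18 of 5699), without a filter (0 of 10733), with the replicate block (7 of 2545), and without any 1 library (0 to 0 over the 4 omissions, 1 to 24 of 2545), and 2 without Tyrobp-positive cells at 10 UMIs (Klra7 and Klra9, 20 of 4584). In Cd8 T cells 1 member was called without a filter (284 of 12013 genes), against 0. Between NKT-like and Cd8 T cells 2 members were called (235 of 3646 genes), 4 with the filter at 10 UMIs (356 of 9502), 1 without the replicate block (122 of 3646) and 1 to 2 when a library was left out (60 to 317 of 3646). For the age-by-gate terms, NK minus Cd8 T gave 1 member without TMM (Klra7, -1.23, adjusted p = 0.0437, 44 of 3421 genes) and 1 with the looser gate (Klra8, -3.26, adjusted p = 0.0488, 10 of 3675), against 0, and NK minus NKT-like gave 0 with the filter at 10 UMIs (7 of 9502) and 0 to 1 when a library was left out, against 1. Without filters or with fewer cells, other genes or samples enter the fit. Otherwise the cause was not tested.

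The difference in the share of NK cells with Klra3 was 34.0 percentage points before thinning and 15.8 with the looser gate, against 21.5, and the difference in members per NK cell was 0.125 before thinning, against 0.01. Among values not called, some changed sign in NK cells: Klra4 was 0.15 without platelet-positive cells and -0.16 to 0.12 over omitted libraries, Klra8 was -0.10 without a filter, -0.10 without TMM, -0.13 and -0.15 with the stricter and looser gates and -0.073 to 0.16 over omitted libraries, Klra9 was 0.061 with the stricter gate and -0.58 to 0.17 over omitted libraries, and Klra1 was -0.15 to 0.92. The Klra3 term for NK minus Cd8 T ranged from -0.041 to 2.56 over omitted libraries. Without TMM the median of all genes in NK cells was -0.13.

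Replicate numbers did not pair the samples, since deviations of equal-numbered samples correlated at 0.015 in NK, -0.028 in NKT-like and -0.044 in Cd8 T cells. With the replicate block, Klra3 in NK cells gave 1.73 (adjusted p = 3.05e-07) and Klra7 in NKT-like cells 1.42 (adjusted p = 0.163). The stricter gate was not run for age in NKT-like cells or for the comparisons between gates, whose fit holds these cells, since the old samples then held 3 and 2 cells. Old NK and NKT-like cells were few, and this limits every age comparison.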
